A study of Mus musculus with 20 samples.

Results

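The genes described here are 39 markers of the myeloid cells of the mouse liver, chosen by name as genes known to mark resident macrophages, monocytes or neutrophils, and read out of a liver RNA table of 36106 genes. By role they comprised 8 markers of resident macrophages (Kupffer cells), 16 genes shared by macrophages and other myeloid cells, 6 markers of recruited monocytes, 7 neutrophil genes and 2 genes of lipid-associated macrophages. All 39 were in the table, and 37 passed the filter on low counts and were tested. The neutrophil genes Ly6g and Mpo did not pass it. The rule that chose the genes uses no measured value, but the genes were chosen with earlier results of these data known.

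Messenger RNA of whole liver was sequenced from male mice that had been orchiectomized (ORX, removal of the testes, where most testosterone is made) or given sham surgery, and then kept in normoxia (Nx) or intermittent hypoxia (IH, repeated short falls of inspired oxygen, used as a model of sleep apnoea) for 2 weeks. The 4 groups are Sham_Nx (sham surgery, normoxia, n = 4, mice 2 to 5), Sham_IH (sham surgery, intermittent hypoxia, n = 5), ORX_Nx (orchiectomy, normoxia, n = 5) and ORX_IH (orchiectomy, intermittent hypoxia, n = 5). Sham_Nx mouse 1 was not analysed here. Strain and age are not given in the sources used here. The labels give 1 library per mouse and no batch, and the mouse numbers were not shown to pair mice across groups.

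Kupffer cells are the macrophages that line the liver sinusoids, where they take up bacteria, dying cells and old erythrocytes from portal blood. They express complement receptors, scavenger receptors and C1q, and mostly renew themselves locally, while monocytes arriving from the blood carry Ccr2 and Ly6c2 and can take on the resident programme when the niche empties. Neutrophils are short-lived granulocytes that hold large stores of S100a8 and S100a9 and gather at sites of injury or infection. In whole tissue, more cells of a type and more RNA per cell cannot be told apart, and this holds for every value below.

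Levels are given as CPM, the estimated count divided by the library total in M counts, with that total scaled by the trimmed mean of M-values (TMM). The libraries held 29.3 to 69.6 M estimated counts, so a floor of 3 counts was worth 0.0413 to 0.108 CPM. A gene is said to have risen or fallen where edgeR's quasi-likelihood test gave a Benjamini-Hochberg adjusted p under 0.05 over the 16164 genes tested.

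Several libraries held transcripts of other tissues. The summed level of 13 skeletal muscle genes was 1084 CPM in ORX_IH 1, 638 in ORX_IH 2, 181 in Sham_Nx 2 and 44.7 in Sham_Nx 3, and at most 9.13 CPM in the other 15. The summed level of 13 pancreatic acinar genes was 1351 CPM in Sham_IH 5, 573 in Sham_Nx 5 and 239 in ORX_IH 1. ORX_Nx 4 and ORX_Nx 5, the libraries that stand apart in the myeloid genes, were in neither set. ORX_Nx 5 had 30.6 M estimated counts and the lowest summed level of 8 hepatocyte markers, 68398 CPM against 77906 to 111689 in the other 18 libraries. ORX_Nx 4 had 63.2 M estimated counts and a hepatocyte sum of 95764 CPM.

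Because many of these genes moved together, the sequence upstream of their starts was read. RefSeq promoter windows on GRCm38.p6, running from 250 bases before to 50 bases after a gene's start, were matched by symbol for 33 of the 39 genes, in 36 windows. The build differs from GRCm39, which the authors used, and the tables of expression give no coordinates. Each window was searched on both strands for GAGGAA, the core of sites bound by PU.1 (the product of Spi1), and for TTGCNNAA, a pattern bound by C/EBP factors. Matches were counted separately for each pattern, so a base could belong to both. Capitals below mark matches to GAGGAA on either strand (TTCCTC is the same word read from the other strand), and none of these 4 windows held TTGCNNAA. The windows shown are those of a marker specific to Kupffer cells (Clec4f, chr6:83656067-83656366, minus strand), a secreted macrophage protein (Cd5l, chr3:87357631-87357930, plus strand), a scavenger receptor (Marco, chr1:120504975-120505274, minus strand) and a neutrophil protein (S100a8, chr3:90668821-90669120, plus strand).
Clec4f: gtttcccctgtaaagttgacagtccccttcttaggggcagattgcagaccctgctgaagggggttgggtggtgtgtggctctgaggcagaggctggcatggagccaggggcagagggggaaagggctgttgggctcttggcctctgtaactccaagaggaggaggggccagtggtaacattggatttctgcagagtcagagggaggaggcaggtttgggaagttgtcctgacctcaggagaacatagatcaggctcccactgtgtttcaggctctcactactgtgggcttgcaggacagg
Cd5l: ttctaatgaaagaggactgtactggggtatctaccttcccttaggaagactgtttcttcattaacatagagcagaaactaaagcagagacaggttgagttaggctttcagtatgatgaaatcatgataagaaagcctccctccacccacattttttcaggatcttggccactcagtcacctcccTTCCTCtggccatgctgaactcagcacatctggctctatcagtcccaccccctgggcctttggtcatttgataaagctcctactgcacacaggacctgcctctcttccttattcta
Marco: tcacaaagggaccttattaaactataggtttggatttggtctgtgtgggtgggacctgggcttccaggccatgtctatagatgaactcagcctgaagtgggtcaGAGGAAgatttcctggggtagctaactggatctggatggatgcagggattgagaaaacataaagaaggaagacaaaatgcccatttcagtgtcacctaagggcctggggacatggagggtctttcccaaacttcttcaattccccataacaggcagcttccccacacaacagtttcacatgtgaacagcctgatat
S100a8: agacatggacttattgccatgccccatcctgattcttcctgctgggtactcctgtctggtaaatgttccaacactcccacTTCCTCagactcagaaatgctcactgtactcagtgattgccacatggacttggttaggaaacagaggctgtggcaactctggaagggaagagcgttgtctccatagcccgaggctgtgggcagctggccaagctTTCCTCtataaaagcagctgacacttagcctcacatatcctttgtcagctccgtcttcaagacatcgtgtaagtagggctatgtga

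GAGGAA was present in 22 of the 36 windows (61.1%), against 28.3% of all 32851 windows of the same length. The 22 include overlapping windows of Ly6c2 and of Ly6g, each counted separately. TTGCNNAA was present in 5 of the 36 (13.9%), against 10.8% of all windows. Clec4f, with no match in its window, and S100a8, with 2, both rose after orchiectomy in normoxia, as described below. A match is a description of these letters and says nothing on whether a factor binds there.

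The labelled tissue carried the markers of resident macrophages at a clear level and those of monocytes and neutrophils at a low one. In Sham_Nx the highest level per length, in RPKM (CPM divided by transcript length in kilobases), was that of Clec4f, a lectin found on Kupffer cells, with 40.0 ± 7.48 RPKM (SD, n = 4). Lyz2 (lysozyme M) followed with 32.9 ± 6.18 RPKM, Cd5l with 26.7 ± 5.75 and C1qb with 26.4 ± 5.15, and neither Clec4f and Lyz2 nor Lyz2, Cd5l and C1qb differed beyond their spread. Vsig4, the complement receptor CRIg, stood at 13.9 ± 2.53 RPKM and Adgre1, which encodes F4/80, at 4.43 ± 1.32. On the same scale Ccr2, the chemokine receptor by which monocytes leave the marrow, stood at 0.369 ± 0.125 RPKM, S100a8 at 0.59 ± 0.435 and Mpo (myeloperoxidase) at 0.0208 ± 0.0102. Ly6g, the surface antigen used to define mouse neutrophils, was at 0 counts in 6 of the 19 libraries and reached at most 0.121 CPM.

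Orchiectomy in normoxia (ORX_Nx against Sham_Nx) addresses what loss of the testes does to these genes in mice breathing room air. With all 19 libraries in the model, 26 of the 37 genes rose and 0 fell, where 7.88% of all genes tested rose and 6.46% fell. All 37 log2 fold changes were above 0, with a median of 1.22, against 0.01 over all genes. By role, 6 of 8 resident markers, 14 of 16 pan-myeloid genes, 4 of 6 monocyte markers, 2 of 5 neutrophil genes and 0 of 2 lipid-associated genes rose. Only Spi1, Ly6c2 and Cx3cr1 had every ORX_Nx mouse above every Sham_Nx mouse, 3 of 37 genes against 5.69% of all genes, and 0 had every ORX_Nx mouse below, against 6.65%. The highest values lay in 2 mice: ORX_Nx 4 was the highest of the 19 libraries for 25 of the 37 genes and ORX_Nx 5 for 11, together 97.3% of them, against 24.9% of all genes tested. The exception was Trem2, which was highest in Sham_IH 2.

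Nearly all of these calls were lost without the 2 mice. The pair was set apart by the values of these same genes, so leaving it out was bound to lower the fold changes. It also makes the ORX_Nx group smaller. Fitted without ORX_Nx 4 and ORX_Nx 5, 1 of the 37 genes (Ly6c2) rose and 0 fell, and the median log2 fold change was 0.39. In that fit 702 of all genes (4.3%) still rose and 773 (4.73%) fell. Relative to the Sham_Nx mean of each gene, the median ratio over the 37 genes was 3.82 in ORX_Nx 4, 3.28 in ORX_Nx 5, 1.72 in ORX_Nx 1, 1.14 in ORX_Nx 2 and 1.03 in ORX_Nx 3. ORX_Nx 1 thus lay between the pair and the other two mice, which were close to the sham level. The count also depended on single libraries, being 4 without Sham_Nx 4, 7 without Sham_Nx 5, 12 without Sham_Nx 3, 16 without Sham_Nx 2, 11 without ORX_Nx 4 and 13 without ORX_Nx 5. It was 1 when only the 2 compared groups were fitted, 1 without mouse 5 of every group, 0 without the 4 libraries highest in muscle genes (median log2 fold change 1.38) and 3 without the 3 highest in pancreatic genes. With other tools on all libraries, DESeq2 called 30, limma-voom 8 and limma-trend on the authors' deposited log2 values 11. Calls over all genes moved as well, from 2319 in the main fit to 3078 by DESeq2 and 422 without the 4 muscle-high libraries. These were the highest and lowest counts among the settings that left out no library singly. With only the 2 compared groups fitted, 2.53% of all genes rose and 3.45% fell. Where no all-gene count is given for a fit, its count does not show whether the 37 lost more calls than other genes.

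**Figure D1:**
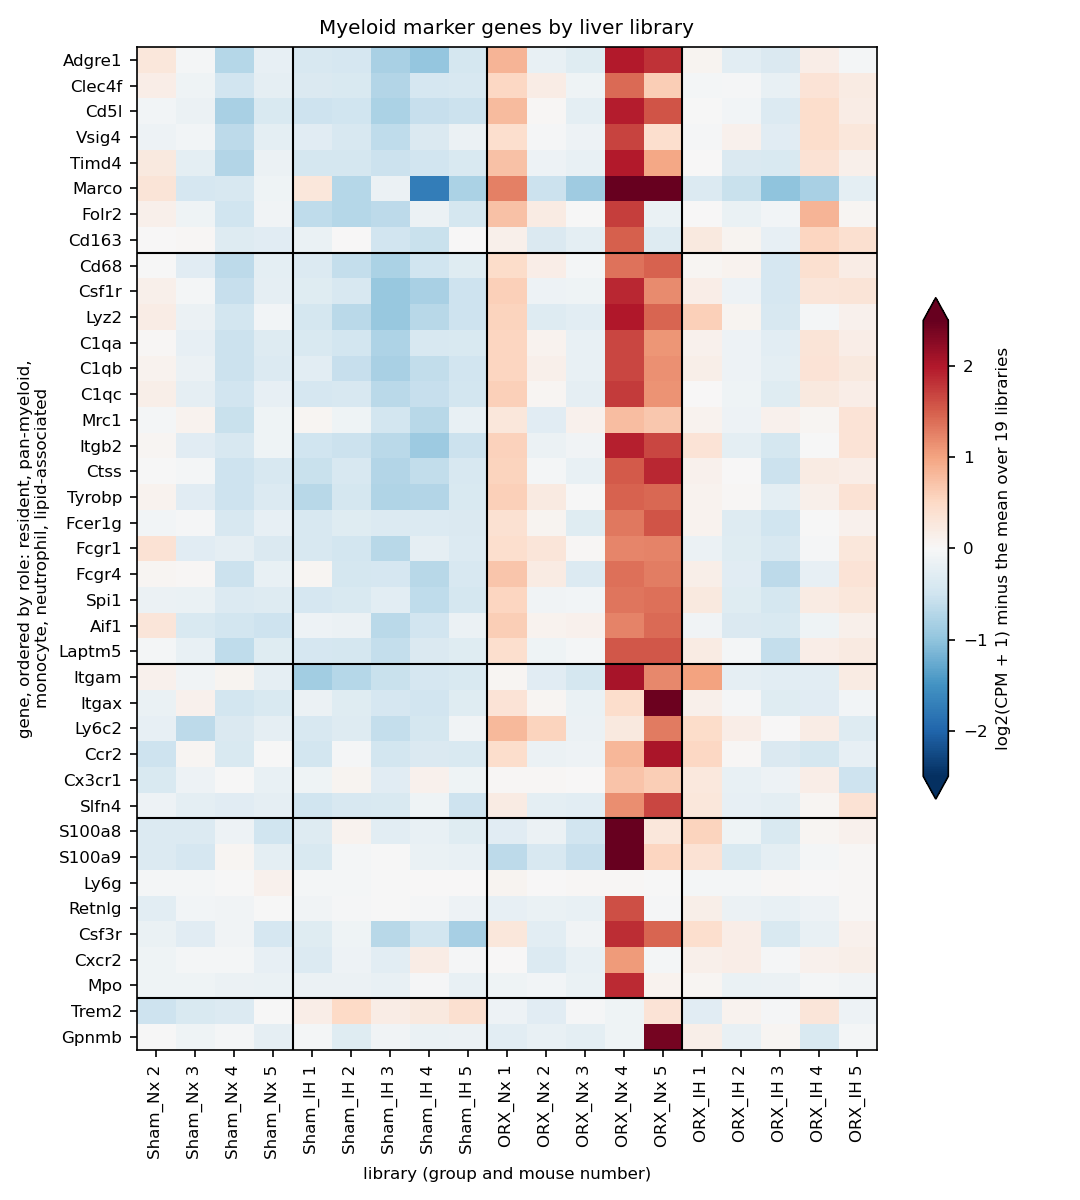
Each cell is the log2(CPM + 1) of 1 gene (vertical axis, ordered by role) in 1 of the 19 libraries (horizontal axis, by group), minus that gene's mean over the 19 libraries, with blue below and red above the mean. The red columns are ORX_Nx 4, highest for 25 of the 37 tested genes, and ORX_Nx 5, highest for 11.

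Among the resident markers, Clec4f stood at 73.0, 60.5, 46.7 and 55.4 CPM in Sham_Nx mice 2 to 5, and at 93.9, 74.4, 60.7, 175 and 101 CPM in ORX_Nx mice 1 to 5. Its highest ORX_Nx values were those of mice 4 and 5, and mouse 3 lay inside the sham range. Clec4f rose by a log2 fold change of 0.78 ± 0.22 (SE), with a Benjamini-Hochberg adjusted p of 0.0266 by edgeR.

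Cd5l, a secreted protein that protects macrophages from apoptosis, was at 59.0, 55.7, 35.1 and 47.4 CPM in Sham_Nx and at 109, 63.4, 52.1, 246 and 186 CPM in ORX_Nx. It rose by 1.41 ± 0.34 (edgeR, adjusted p = 0.0112), with 4 of 5 ORX_Nx mice above every sham mouse. Adgre1 was at 17.1, 13.3, 8.06 and 12.0 CPM in Sham_Nx and at 25.9, 12.0, 11.0, 58.2 and 51.2 CPM in ORX_Nx. Here mice 2 and 3 lay within the sham range, and the log2 fold change was 1.33 ± 0.39 (edgeR, adjusted p = 0.0320).

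Marco, a scavenger receptor for bacteria and modified lipoproteins, had the widest spread of the resident markers. It was at 7.79, 4.26, 4.36 and 5.55 CPM in Sham_Nx, and at 15.9, 3.88, 2.82, 101 and 55.0 CPM in ORX_Nx. Mice 4 and 5 were thus 18.4 and 10.0 times the Sham_Nx mean, mouse 1 was 2.89 times it, and mice 2 and 3 were below every sham mouse. Over all 5 mice Marco rose by 2.70 ± 0.79 on the log2 scale (edgeR, adjusted p = 0.0306), and fitted without ORX_Nx 4 and ORX_Nx 5 its value was 0.46 ± 0.54 (adjusted p = 0.658).

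Vsig4 and Timd4, a receptor for phosphatidylserine on dying cells, set the pair apart from each other. Vsig4 was at 12.6 to 19.6 CPM in Sham_Nx and at 27.8, 20.1, 18.6, 68.1 and 27.7 CPM in ORX_Nx, so that mouse 4 stood alone. Timd4 was at 2.88 to 6.67 CPM in Sham_Nx and at 9.77, 4.94, 4.68, 24.6 and 11.7 CPM in ORX_Nx, again highest in mouse 4. Vsig4 rose by 0.93 ± 0.29 (edgeR, adjusted p = 0.0391) and Timd4 by 1.25 ± 0.38 (adjusted p = 0.0348). The remaining resident markers did not pass the test. Folr2, the folate receptor of resident macrophages, had a log2 fold change of 0.93 ± 0.35 (edgeR, adjusted p = 0.0835) and Cd163, the haemoglobin scavenger receptor, of 0.50 ± 0.32 (adjusted p = 0.305). Both were 3.23 to 4.16 times the sham mean in mouse 4 and below it in mouse 5. All 8 resident markers were higher in ORX_Nx 4 than in ORX_Nx 5.

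**Figure D2:**
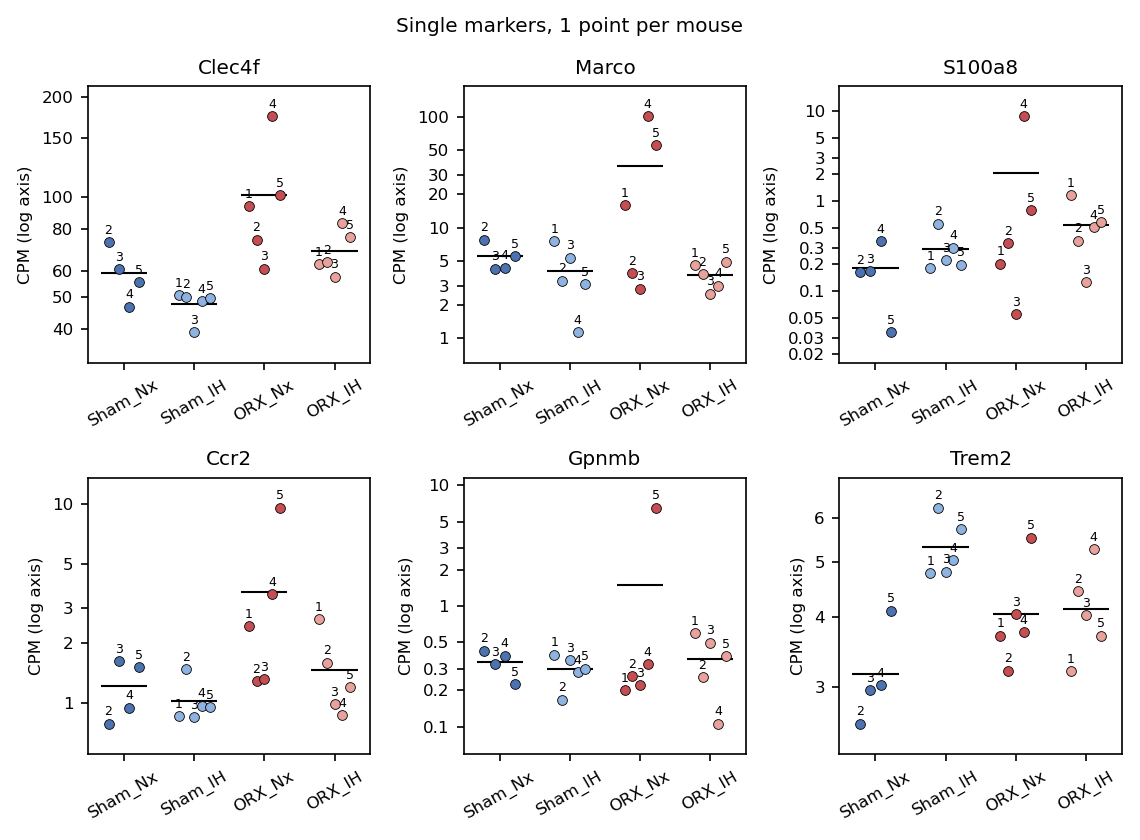
Points are single mice, numbered as in the labels, on a log axis of CPM for 6 genes in the 4 groups, and bars are group means. Marco is high in ORX_Nx 4 (101 CPM) and 5 (55.0), S100a8 in ORX_Nx 4 (8.71), Ccr2 and Gpnmb in ORX_Nx 5 (9.55 and 6.51). Trem2 is higher in all 5 Sham_IH mice than in any Sham_Nx mouse, and ORX_Nx 5 (5.53) and ORX_IH 4 (5.28) lie within the Sham_IH range.

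The pan-myeloid genes gave the most even picture. Tyrobp, the adaptor DAP12 through which many myeloid receptors signal, was at 7.97, 5.91, 4.86 and 5.66 CPM in Sham_Nx and at 11.7, 8.86, 7.37, 22.5 and 21.8 CPM in ORX_Nx. Only mouse 3 lay inside the sham range, and Tyrobp rose by 1.24 ± 0.28 (edgeR, adjusted p = 0.00793). Spi1, the transcription factor PU.1 that the myeloid lineages need, was at 4.12, 4.02, 3.44 and 3.51 CPM in Sham_Nx and at 7.16, 4.33, 4.37, 13.2 and 13.6 CPM in ORX_Nx. The Spi1 ranges did not overlap, although mice 2 and 3 exceeded the highest sham mouse only slightly, and the log2 fold change was 1.18 ± 0.30 (edgeR, adjusted p = 0.0173).

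Cd68, a lysosomal glycoprotein, was at 4.20 to 7.16 CPM in Sham_Nx and at 10.2, 8.20, 6.97, 20.0 and 21.7 CPM in ORX_Nx, a rise of 1.22 ± 0.29 (edgeR, adjusted p = 0.0116). Aif1, which encodes the actin-binding protein Iba1, was at 2.82, 1.38, 1.26 and 1.16 CPM in Sham_Nx and at 3.73, 2.27, 2.31, 6.31 and 7.23 CPM in ORX_Nx. Aif1 rose by 1.40 ± 0.36 (edgeR, adjusted p = 0.0163), with Sham_Nx 2 lying among the lower ORX_Nx mice. C1qa, a chain of the first complement component, was at 17.3 to 25.8 CPM in Sham_Nx and at 37.6, 27.1, 22.2, 83.4 and 55.7 CPM in ORX_Nx.

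C1qb was at 29.7, 25.0, 18.8 and 21.8 CPM in Sham_Nx and at 41.0, 30.4, 24.3, 91.1 and 62.9 CPM in ORX_Nx. The C1q chains kept step with each other: C1qa rose by 1.09 ± 0.28, C1qb by 1.07 ± 0.28 and C1qc by 1.04 ± 0.29 (edgeR, adjusted p = 0.0164, 0.0195 and 0.0236). Csf1r, the receptor for the growth factor that macrophages depend on, was at 28.4 to 47.1 CPM in Sham_Nx and at 65.4, 39.3, 39.5, 162 and 98.5 CPM in ORX_Nx, with mice 2 and 3 inside the sham range. It rose by 1.08 ± 0.33 (edgeR, adjusted p = 0.0357). Laptm5, a lysosomal membrane protein of blood cells, rose by 1.19 ± 0.31 (adjusted p = 0.0183), and Ctss, the lysosomal protease cathepsin S, by 1.25 ± 0.34 (adjusted p = 0.0201). Ctss was at 25.1, 24.5, 17.4 and 19.0 CPM in Sham_Nx and at 37.7, 24.5, 22.1, 75.3 and 97.2 CPM in ORX_Nx, higher in mouse 5 than in mouse 4, the reverse of Csf1r. Laptm5 was at 16.6, 14.9, 10.7 and 13.6 CPM in Sham_Nx and at 23.2, 15.8, 16.5, 52.4 and 51.9 CPM in ORX_Nx, alike in mice 4 and 5.

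The integrin chain Itgb2 and the immunoglobulin receptor chains Fcer1g, Fcgr1 and Fcgr4 also rose, by 1.04 to 1.37 on the log2 scale. The 2 pan-myeloid genes that did not pass were Lyz2 and Mrc1. Lyz2 was at 45.9, 36.0, 28.9 and 38.3 CPM in Sham_Nx and at 59.1, 31.8, 33.4, 164 and 111 CPM in ORX_Nx, with a log2 fold change of 1.10 ± 0.37 (edgeR, adjusted p = 0.0531). Mrc1, the mannose receptor, which sinusoidal endothelium also expresses, had a value of 0.51 ± 0.20 (adjusted p = 0.0862) and was 1.90 and 1.78 times the sham mean in mice 4 and 5. In transcript sequences of an older annotation, 32.8% of the 31-base words of Lyz2 also occur in Lyz1, so kallisto may divide reads between them.

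Of the 6 monocyte markers 4 were higher in mouse 5 than in mouse 4. Ly6c2, the Ly6C antigen of inflammatory monocytes, was at 1.22, 0.624, 0.969 and 1.18 CPM in Sham_Nx and at 3.43, 2.73, 1.31, 2.00 and 5.25 CPM in ORX_Nx. All 5 ORX_Nx mice were above all 4 sham mice, and mice 1 and 2 exceeded mouse 4. Ly6c2 rose by 1.55 ± 0.35 (edgeR, adjusted p = 0.00782), and it was the only one of the 37 to rise when fitted without ORX_Nx 4 and ORX_Nx 5 (1.32 ± 0.33, adjusted p = 0.0203). It was also the 1 gene that passed with only the 2 compared groups in the model. Over all genes 4.3% rose without the pair and 2.53% with the 2 groups alone, so 1 of 37 is near the background share. Over 31 alternative fits Ly6c2 passed in 30, with values from 1.24 to 1.74. It did not pass without the 4 libraries highest in muscle genes (1.44, edgeR, adjusted p = 0.0923), which include Sham_Nx 2 and Sham_Nx 3. Of the 31-base words of Ly6c2, 21.4% also occur in its neighbour Ly6c1, which endothelium and lymphocytes express, so its counts are uncertain to that extent.

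Ccr2 was at 0.791, 1.63, 0.953 and 1.52 CPM in Sham_Nx and at 2.44, 1.29, 1.32, 3.53 and 9.55 CPM in ORX_Nx, with mice 2 and 3 inside the sham range. Itgax, which encodes the integrin CD11c of dendritic cells and some macrophages, was at 0.436 to 1.14 CPM in Sham_Nx and at 1.51, 1.03, 0.770, 1.67 and 9.86 CPM in ORX_Nx. In mouse 5 Itgax was 13.9 times and Ccr2 7.80 times the sham mean, and in mouse 4 they were 2.35 and 2.88 times it. Ccr2 rose by 1.55 ± 0.50 (edgeR, adjusted p = 0.0466), Itgax by 2.04 ± 0.60 (adjusted p = 0.0313) and Slfn4, a Schlafen gene of activated macrophages, by 2.30 ± 0.72 (adjusted p = 0.0403). Other genes share 20.1% of the 31-base words of Slfn4 and 10.7% of those of Itgax, so their counts are uncertain to that extent.

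Cx3cr1, the fractalkine receptor of patrolling monocytes, was at 0.345 to 0.727 CPM in Sham_Nx and at 0.770, 0.787, 0.757, 1.86 and 1.68 CPM in ORX_Nx. Its ranges did not overlap but came within 0.757 and 0.727 CPM of each other, and its log2 fold change of 1.08 ± 0.40 did not pass (edgeR, adjusted p = 0.0745). Itgam, the CD11b chain shared by monocytes and neutrophils, was 6.53 times the sham mean in mouse 4 and 3.28 times in mouse 5, with a log2 fold change of 1.28 ± 0.59 (adjusted p = 0.153). Of its 31-base words 67.2% are shared with 1 predicted gene model, so its level is uncertain.

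The neutrophil genes were led by ORX_Nx 4. S100a8, a subunit of the calcium-binding dimer calprotectin, was at 0.162, 0.165, 0.355 and 0.0346 CPM in Sham_Nx and at 0.201, 0.337, 0.0550, 8.71 and 0.782 CPM in ORX_Nx. Its partner S100a9 was at 0.426, 0.349, 0.872 and 0.519 CPM in Sham_Nx and at 0.151, 0.375, 0.206, 15.1 and 1.62 CPM in ORX_Nx. Mouse 4 thus stood at 48.6 and 27.9 times the sham means, mouse 5 at 4.36 and 2.99 times, and mice 1 to 3 were at or below 0.375 CPM for both genes. S100a8 rose by 3.47 ± 1.13 (edgeR, adjusted p = 0.0471), S100a9 had 2.68 ± 1.00 (adjusted p = 0.0785), and fitted without ORX_Nx 4 and ORX_Nx 5 their values were 0.10 ± 0.76 and -1.16 ± 0.44. S100a8 passed in 8 of 31 alternative fits.

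Retnlg, a secreted resistin-like protein of neutrophils, was at 2.72 CPM in ORX_Nx 4 (174 counts) and at 0.0203 to 0.346 CPM in the other 18 libraries. Mpo, the peroxidase of the primary granules made by neutrophil precursors, was at 3.19 CPM in ORX_Nx 4 (204 counts of the 267 in all 19 libraries), at 0.223 CPM in ORX_Nx 5 and at 0.187 CPM or less elsewhere. Ly6g did not follow them: it was at 0.0625 CPM in ORX_Nx 4, and its highest value, 0.121 CPM, was 7 counts in Sham_Nx 5. Ly6g had 39 counts in all 19 libraries together, so no difference was detectable at this depth.

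Csf3r, the receptor for granulocyte colony-stimulating factor, which monocytes also carry, was high in both mice, at 11.7 CPM in ORX_Nx 4 and 8.80 CPM in ORX_Nx 5, against 1.66 to 2.34 CPM in Sham_Nx. It rose by 1.47 ± 0.44 (edgeR, adjusted p = 0.0340). Of the 31-base words of Csf3r, 23.1% also occur in other genes, so its counts are uncertain to that extent. Cxcr2, the receptor for neutrophil chemokines, was at 2.39 CPM in ORX_Nx 4 and 0.587 CPM in ORX_Nx 5, against 0.415 to 0.582 CPM in Sham_Nx, and did not pass the test (0.75 ± 0.47, adjusted p = 0.299).

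Both lipid-associated markers were higher in ORX_Nx 5 than in ORX_Nx 4, and neither passed the test. Gpnmb, a glycoprotein of lipid-laden macrophages, was at 0.426, 0.331, 0.388 and 0.225 CPM in Sham_Nx and at 0.201, 0.262, 0.220, 0.328 and 6.51 CPM in ORX_Nx. Mouse 5 alone was high, at 19.0 times the sham mean, and the log2 fold change of 2.09 ± 0.90 did not pass (edgeR, adjusted p = 0.123). Trem2, a receptor for lipids, was at 2.58, 2.96, 3.02 and 4.10 CPM in Sham_Nx and at 3.70, 3.20, 4.04, 3.75 and 5.53 CPM in ORX_Nx, with a value of 0.35 ± 0.17 (adjusted p = 0.180).

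**Figure D3:**
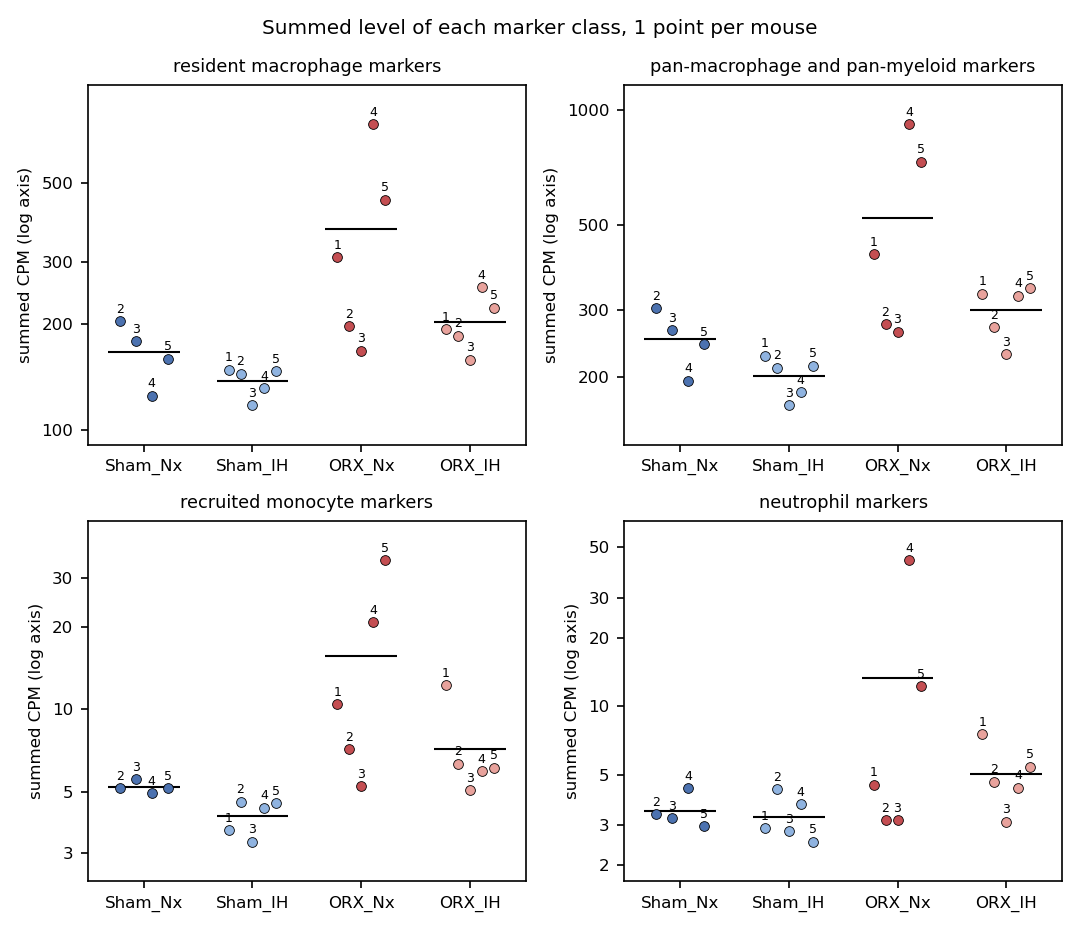
Points are the summed CPM of each marker class in 1 mouse, numbered as in the labels, on log axes, and bars are group means. ORX_Nx 4 has the highest resident (737 CPM), pan-myeloid (918) and neutrophil (43.9) sums, and ORX_Nx 5 the highest monocyte sum (34.9).

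Summed by class, the 2 mice differed from each other as well as from the rest. The resident sum was 737 CPM in ORX_Nx 4 and 450 CPM in ORX_Nx 5, the monocyte sum 20.8 and 34.9 CPM, and the neutrophil sum 43.9 and 12.2 CPM. The Sham_Nx mice spanned 125 to 204 CPM for the resident sum, 4.94 to 5.58 CPM for the monocyte sum and 2.98 to 4.36 CPM for the neutrophil sum. ORX_Nx 1 was above all sham mice for the resident (308 CPM), monocyte (10.5 CPM) and, by a small margin, neutrophil sum (4.52 CPM). The part of the low hepatocyte sum of ORX_Nx 5 in its values was not tested.

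Genes of the same cells outside the 39 gave a similar split. Of 12 other Kupffer cell genes 5 rose and 0 fell, and of 27 other phagocyte genes 21 rose and 0 fell, against the same 7.88% and 6.46% of all genes. Fitted without ORX_Nx 4 and ORX_Nx 5, 0 and 2 of them rose, where 4.3% of all genes rose. The smallest adjusted p-values among the Kupffer cell genes were those of Il18bp, which encodes a decoy for interleukin 18 (1.20 ± 0.30, edgeR, adjusted p = 0.0129), Clec1b and Slc11a1. Il18bp was at 7.46 to 9.94 CPM in Sham_Nx and at 15.3, 12.5, 10.2, 23.4 and 40.9 CPM in ORX_Nx, with no overlap. Among the phagocyte genes they were those of Cd52, Irf8 and Ms4a6c. Both Cd52 (0.84 ± 0.23, adjusted p = 0.0289) and Irf8, a transcription factor of monocytes (0.60 ± 0.17, adjusted p = 0.0387), still rose without the pair.

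Of 18 tested growth factors, chemokines and their receptors 6 rose and 0 fell, where 7.88% and 6.46% of all genes did. Without ORX_Nx 4 and ORX_Nx 5, 4 rose, where 4.3% of all genes rose. The smallest adjusted p-values were those of Il1rn (the interleukin 1 receptor antagonist), Ccl9 and Cxcl1. Cxcl1, a chemokine that attracts neutrophils through Cxcr2, was at 1.26, 2.42, 1.63 and 1.42 CPM in Sham_Nx and at 9.92, 8.73, 5.49, 222 and 7.82 CPM in ORX_Nx. The ORX_Nx 4 mouse with the high neutrophil genes thus had the highest Cxcl1, and the other 4 were also above every sham mouse (2.25 ± 0.55 without the pair, edgeR, adjusted p = 0.0176). Ccl9, a chemokine of the macrophage inflammatory protein family, rose by 0.77 ± 0.14 (adjusted p = 0.00160) and was lowest of the ORX_Nx mice in mouse 4. Of 7 tested granulocyte genes 1 rose, Lcn2, an iron-scavenging protein that hepatocytes also make, at 67.1 CPM in ORX_Nx 4 and 164 CPM in ORX_Nx 5 against 1.70 to 4.10 CPM in Sham_Nx.

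Markers of other liver cells were read beside these. Of 10 sinusoidal endothelial markers 0 passed (edgeR; 1 at unadjusted p under 0.05, median log2 fold change 0.18), of 8 hepatocyte markers 0 rose and 1 fell, of 10 stellate cell markers 3 rose, led by Col3a1, and of 8 cholangiocyte markers 2 rose, Spp1 and Krt19. Of 15 markers of T, NK and B cells 3 rose: Gzma, Klrb1c and Cd79b. The T, NK and B cell sum was 21.5 CPM in ORX_Nx 4 and 36.6 CPM in ORX_Nx 5, against 17.2 to 18.6 CPM in ORX_Nx 1 to 3 and 7.61 to 13.0 CPM in Sham_Nx.

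Orchiectomy under intermittent hypoxia (ORX_IH against Sham_IH) puts the same question to mice exposed to IH. With all 19 libraries in the model, 0 of the 37 genes passed edgeR's test, where 1.31% of all genes rose and 1.57% fell. At an unadjusted edgeR p under 0.05 there were 14 of the 37, and the share of all genes at that looser threshold was not counted. DESeq2 called 1 gene (Tyrobp), and limma-voom and limma-trend called 0. The log2 fold changes were nevertheless above 0 for 34 of 37 genes, with a median of 0.54 against -0.0043 over all genes, and 11 genes had every ORX_IH mouse above every Sham_IH mouse, 11 of 37 against 2.77% of all genes. The reverse order, lower in every ORX_IH mouse, was found in 3.07% of all genes. The 11 were Adgre1, Clec4f, Cd5l, Timd4, Lyz2, C1qa, C1qb, C1qc, Itgb2, Tyrobp and Itgam.

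The spread of ORX_Nx 4 and ORX_Nx 5 enters this test, because the model shares 1 estimate of the spread between groups. The pair was set apart by the values of these same genes, so leaving it out favours smaller standard errors for them. The count without the pair is therefore not an independent test. Fitted without ORX_Nx 4 and ORX_Nx 5, neither of which belongs to the compared groups, 13 of the 37 genes rose and 0 fell, against 3.14% and 2.45% of all genes in that fit, with the median log2 fold change of the 37 at 0.55. Fitted on the 2 compared groups alone, 11 rose, against 2.15% of all genes, and all 11 were among the 13. The median standard error of the 37 log2 fold changes was 0.32 with all libraries, 0.21 without the pair and 0.18 with the compared groups alone. The 13 genes were C1qa, C1qb, C1qc, Cd5l, Cd68, Clec4f, Csf1r, Ctss, Folr2, Itgam, Itgb2, Lyz2 and Tyrobp, which are resident and pan-myeloid genes with the exception of the monocyte marker Itgam.

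**Figure D4:**
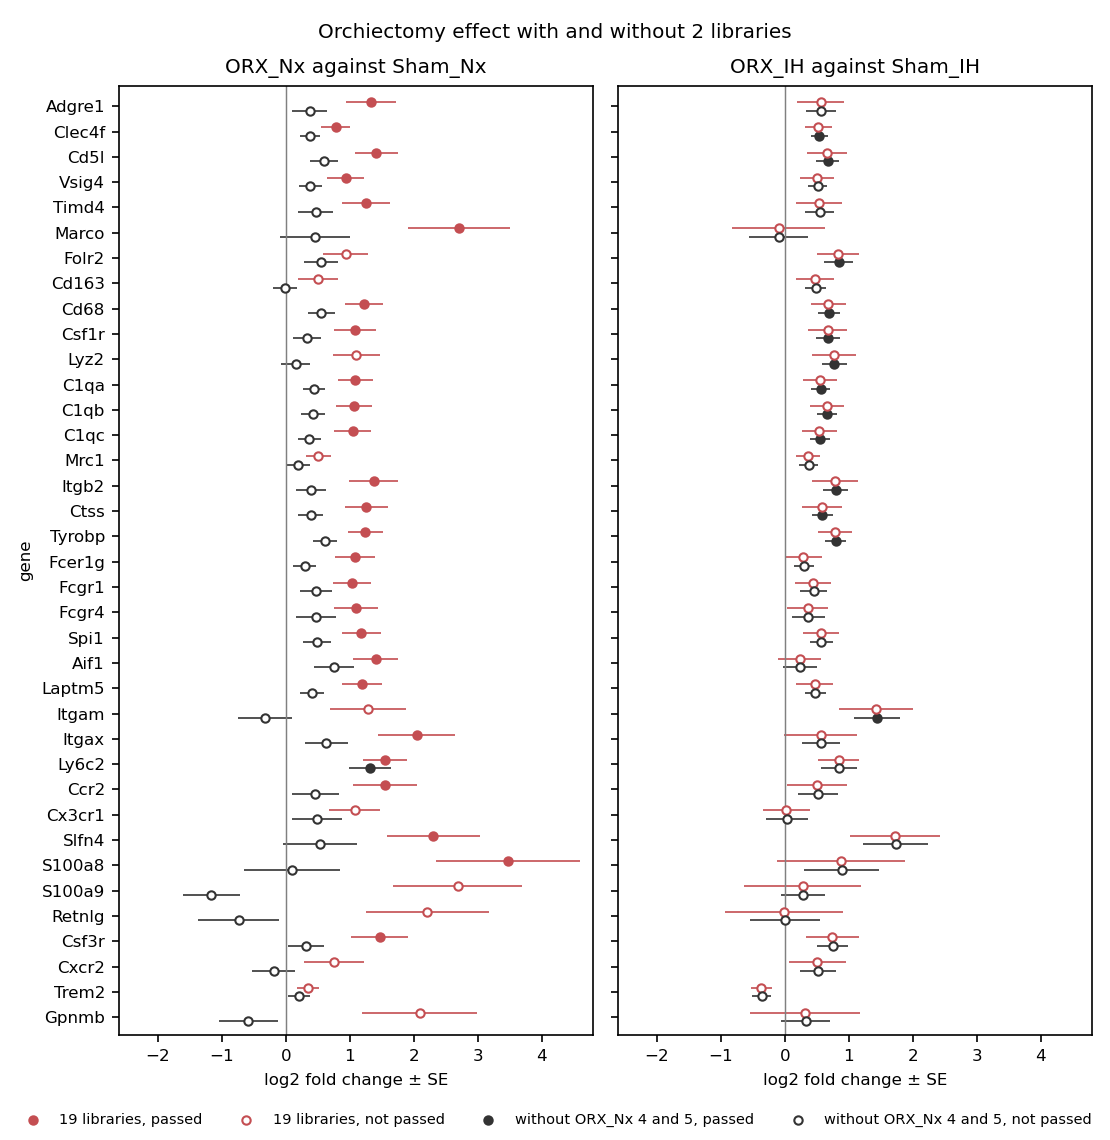
Points are log2 fold changes with their standard errors for the 37 tested genes, ORX_Nx against Sham_Nx on the left and ORX_IH against Sham_IH on the right, fitted with 19 libraries (red) and without ORX_Nx 4 and 5 (black), with filled points where the adjusted p was under 0.05. Leaving out the 2 libraries takes the count on the left from 26 to 1 and on the right from 0 to 13. The 2 were set apart by these same genes, so neither change is an independent test.

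Clec4f was at 50.6, 50.1, 39.1, 48.5 and 49.5 CPM in Sham_IH mice 1 to 5 and at 62.6, 63.7, 57.5, 83.2 and 75.7 CPM in ORX_IH mice 1 to 5. The groups did not overlap, and Sham_IH 3 lay well below the other Sham_IH mice. Its log2 fold change was 0.53 ± 0.21 with all libraries (edgeR, adjusted p = 0.192) and 0.54 ± 0.13 without ORX_Nx 4 and ORX_Nx 5 (adjusted p = 0.0280).

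Tyrobp was at 4.24, 5.21, 3.99, 4.10 and 5.45 CPM in Sham_IH and at 8.00, 7.63, 6.10, 8.17 and 9.84 CPM in ORX_IH, again with no overlap. Its value was 0.78 ± 0.26 with all libraries (edgeR, adjusted p = 0.114) and 0.79 ± 0.16 without the pair (adjusted p = 0.00812). Cd5l was at 35.5 to 43.6 CPM in Sham_IH and at 49.0 to 84.0 CPM in ORX_IH, and had 0.66 ± 0.31 (adjusted p = 0.283) and 0.67 ± 0.18 (adjusted p = 0.0420). C1qa was at 14.5 to 19.4 CPM in Sham_IH and at 21.1 to 32.0 CPM in ORX_IH. Lyz2 was at 20.4 to 29.1 CPM in Sham_IH and at 61.0, 42.0, 30.2, 38.5 and 43.2 CPM in ORX_IH, highest in the mouse with the most muscle transcripts. The part of those transcripts in the Lyz2 value was not tested.

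Marco, S100a8, S100a9 and Retnlg overlapped between the groups under IH. Marco was at 7.54, 3.31, 5.36, 1.14 and 3.09 CPM in Sham_IH and at 4.56, 3.82, 2.53, 3.00 and 4.93 CPM in ORX_IH, with a log2 fold change of -0.10 ± 0.72. S100a8 was at 0.180, 0.558, 0.220, 0.302 and 0.195 CPM in Sham_IH and at 1.15, 0.361, 0.124, 0.513 and 0.576 CPM in ORX_IH, and the ranges overlapped (0.88 ± 1.00, edgeR, adjusted p = 0.700). S100a9 had 0.28 ± 0.91 and Retnlg -0.01 ± 0.92. None of the 4 passed the test.

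Of the monocyte markers, Ly6c2 was at 0.934, 1.02, 0.688, 0.870 and 1.40 CPM in Sham_IH and at 2.51, 1.83, 1.57, 1.87 and 1.04 CPM in ORX_IH. Only ORX_IH 5 lay within the sham range, and the value was 0.84 ± 0.32 (edgeR, adjusted p = 0.178). Itgam was at 0.359 to 0.906 CPM in Sham_IH and at 3.95, 1.13, 1.06, 1.07 and 1.86 CPM in ORX_IH, with ORX_IH 1 far above the others (1.43 ± 0.58, adjusted p = 0.205). Ccr2 (0.50 ± 0.47) and Cx3cr1 (0.03 ± 0.37) overlapped between the groups. The monocyte sum was 12.2 CPM in ORX_IH 1 and 5.08 to 6.34 CPM in the other ORX_IH mice, against 3.30 to 4.62 CPM in Sham_IH.

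Intermittent hypoxia in sham-operated mice (Sham_IH against Sham_Nx) asks what the exposure does with the testes in place. None of the 37 genes passed edgeR's test (0 of 37), where 0.099% of all genes rose and 0.204% fell. At an unadjusted edgeR p under 0.05 there was 1 of the 37, with no share of all genes counted. DESeq2 called 1 and limma-voom and limma-trend 0. The log2 fold changes had a median of -0.26 and were above 0 for 6 genes. Itgb2 and Itgam had every Sham_IH mouse below every Sham_Nx mouse, 2 of 37 against 4.21% of all genes. In a fit of these 2 groups alone, where 1.53% of all genes rose and 1.66% fell, Itgam (-1.08, edgeR, adjusted p = 0.0494) and Lyz2 (-0.56, adjusted p = 0.0449) fell, Trem2 rose, and Itgb2 did not pass (-0.55, adjusted p = 0.0562). The Lyz2 ranges overlapped by a small margin.

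Trem2 was the gene with the smallest p-value. It was at 2.58, 2.96, 3.02 and 4.10 CPM in Sham_Nx and at 4.78, 6.25, 4.81, 5.04 and 5.72 CPM in Sham_IH, so that all exposed mice were above all unexposed ones, 1 of 37 genes against 4.31% of all genes. Its log2 fold change was 0.75 ± 0.17 (edgeR, adjusted p = 0.0659). The adjusted p was 0.0250 without ORX_Nx 4 and ORX_Nx 5, 0.0229 with the 2 groups alone and 0.00424 by DESeq2, and over 31 alternative fits Trem2 passed in 4, with values from 0.58 to 0.90 and adjusted p up to 0.594. In orchiectomized mice the Trem2 value for the exposure was 0.03 ± 0.16, and the interaction, which tests whether these effects differ, was -0.72 ± 0.24 (edgeR, adjusted p = 0.658). The Gpnmb value for the exposure in sham mice was -0.21 ± 0.91.

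Intermittent hypoxia in orchiectomized mice (ORX_IH against ORX_Nx) shares its ORX_Nx samples with the first comparison, and its ORX_IH samples with the second. Of the 37 genes 0 passed edgeR's test, where 0.0186% of all genes rose and 0.0557% fell, 0.0742% in all. Those shares use the adjusted p. At an unadjusted edgeR p under 0.05 there were 28 of the 37, and the share of all genes at that looser threshold was not counted. DESeq2 called 14, all lower under IH, where it called 712 of all genes in either direction. Both limma-voom and limma-trend called 0 of the 37. The median log2 fold change was -0.94, and -0.13 when fitted without ORX_Nx 4 and ORX_Nx 5, with 0 genes called. Marco had the smallest adjusted p (-3.25 ± 0.75, adjusted p = 0.0658) with ORX_IH at 2.53 to 4.93 CPM and ORX_Nx at 2.82 to 101 CPM, the lower ORX_Nx mice lying within the ORX_IH range. None of the 37 genes had ORX_IH mice all below ORX_Nx mice, against 1.12% of all genes.

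The interaction of orchiectomy and intermittent hypoxia was not called by edgeR for any of the 37 genes, nor for any of the 16164 genes, 0% of them. At an unadjusted edgeR p under 0.05 there were 3 of the 37, with no share of all genes counted. DESeq2, limma-voom and limma-trend called 0 of the 37. The median over the 37 genes was -0.68, and 0.18 without ORX_Nx 4 and ORX_Nx 5, so the sign changed without those 2 libraries. In the summed levels, ORX_IH spanned 158 to 255 CPM for the resident class against 118 to 148 CPM in Sham_IH, and ORX_Nx spanned 168 to 737 CPM against 125 to 204 CPM in Sham_Nx.

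The authors' deposited table gives a q-value per gene for any difference among the 4 groups. Of the 39 genes, 3 had, in the authors' deposited table, a q-value under 0.05: Tyrobp (0.0218), Fcgr1 (0.0456) and Ly6c2 (0.0460). Over all genes of the authors' deposited table, 1450 of 35982 did. Clec4f stood at 0.0620 in the authors' deposited table and Marco at 0.366.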

How the data were processed

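Liver messenger RNA of 19 mice was analysed, 4 of Sham_Nx and 5 of each other group, grouped by the sample titles; Sham_Nx mouse 1, the 20th sample of the labels, was not analysed here. Frozen liver gave the total RNA, which was poly(A) selected for directional libraries, per the labels' protocols. Per the submitters' processing notes, bcl2fastq 2.20, fastp 0.23.2, FastQC 0.11.9, MultiQC 1.12 and kallisto 0.46.1 were used with the build GRCm39. The authors deposited estimated counts per gene, of which 27.5% were not whole, and these expected counts were rounded for the tests. A second table that the authors deposited holds log2 values and a q-value (adjusted p-value) per gene. How its values were normalized is not stated in the labels or headers, and they differed from log2 RPKM computed here by a median of 0.0784. Every column of per-sample values was matched to a sample.

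In R 4.3.3, genes were filtered with filterByExpr (minimum count 10), scaled by TMM and tested with edgeR 4.0.16 (glmQLFit, glmQLFTest) on group means over all 4 groups, with Benjamini-Hochberg adjustment over 16164 genes. CPM and RPKM use the same scaled totals, and RPKM the mean length in the authors' table. Alternatives used DESeq2 1.42.0 and limma 3.58.1, other scaling, no filter, the compared groups only, the mouse number as a block, and libraries left out singly or in sets. The script was tested on simulated data. Same-numbered mice share only a number: over 27 such pairs the correlation of deviations from the group mean had a median of 0.03, and 4 pairs were over 0.1. No 2 libraries of a group agreed within sampling noise (chi-square per degree of freedom at least 18.5). A count of 3 was taken as the floor, and such limits cover counting error only. Kallisto divides reads between near-identical transcripts, which was gauged by shared 31-base words in GENCODE M21 transcripts. The members and lists were chosen with earlier results of these data known. Values, per mouse or as a range, are given for 17 defining markers and the members with the 10 smallest adjusted p in any comparison, and for other lists the 3 genes of smallest adjusted p in normoxia.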

Additional observations from a re-analysis of the deposited data

Results flagged for a closer look

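In groups of 4 or 5 mice, the highest or lowest mouse was set apart where its gap to the nearest mouse exceeded Dixon's 95% critical share of the group's range. Of 120 groups of values screened 13 met this, and chance alone gives about 5% of groups. Of these, 7 lay in ORX_Nx. ORX_Nx 4 was far above the next mouse for Vsig4 (68.1 CPM, next 27.8), S100a8 (8.71 CPM, next 0.782), S100a9 (15.1 CPM, next 1.62) and the summed neutrophil markers (43.9 CPM, next 12.2). ORX_Nx 5 was far above the next for Ccr2 (9.55 CPM, next 3.53), Gpnmb (6.51 CPM, next 0.328) and the summed lipid-associated markers (12.0 CPM, next 4.26).

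In Sham_IH, mouse 3 was the lowest for Clec4f (39.1 CPM, next 48.5), Cd5l (35.5 CPM, next 41.3) and C1qa (14.5 CPM, next 18.1), and mouse 2 the highest for Ccr2 (1.49 CPM, next 0.976). Sham_Nx 2 was the highest of its group for Aif1 (2.82 CPM, next 1.38). ORX_IH 1 had the highest summed monocyte markers of its group (12.2 CPM, next 6.34); it is also the library with the most skeletal muscle transcripts, whose part in this value was not tested.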

How the results depend on the processing

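For orchiectomy in normoxia 26 genes were called. None of these 26 changed sign under any alternative run, while 6 of the 37 genes, none of them called, did; for the other comparisons, where 0 were called, 5 (orchiectomy under intermittent hypoxia), 9 and 13 (the exposure in sham and in orchiectomized mice) and 29 (interaction) of 37 did. The count called after orchiectomy in normoxia stayed within 1.5 times of this with other size factors (26), no scaling (30), no filter (22) and DESeq2 (30). It was 8 with limma-voom, 11 with limma-trend on the deposited log2 values, 1 with the compared groups only, 1 without mouse 5 of each group, 0 without the 4 muscle-high libraries, 3 without the 3 pancreatic-high libraries, and 1 without ORX_Nx 4 and ORX_Nx 5. Leaving out 1 library at a time gave 4 to 29. Under intermittent hypoxia 0 were called; the count was 1 with DESeq2, 11 with the compared groups only, 13 without ORX_Nx 4 and ORX_Nx 5, and 0 to 1 leaving out 1 library (1 without ORX_Nx 4). For the exposure in sham mice it was 0, but 1 with DESeq2, 3 with the compared groups only, 1 without the pair and 0 to 1 leaving out 1 library (1 without ORX_Nx 5). For the exposure in orchiectomized mice it was 0, but 14 with DESeq2, and 0 to 12 leaving out 1 library (12 without ORX_Nx 3, 4 without ORX_Nx 2). For the interaction it was 0 to 0. The causes were not tested, and a count given without its all-gene share does not show whether the 37 moved more than other genes. With the replicate block the counts were 13, 0, 0, 0 and 0 in the order above; same-numbered mice were not shown to be paired (r -0.18 to 0.63 over 27 pairs, and 8 of 19 libraries correlated best with their own number). Over all genes, and with no library left out singly, calls ranged from 422 to 3078 around 2319 (orchiectomy in normoxia), from 107 to 971 around 465 (under intermittent hypoxia), from 0 to 483 around 49 and from 0 to 712 around 12 (the exposure in sham and in orchiectomized mice), and from 0 to 63 around 0 (interaction). Without scaling, 2362 genes rose and 372 fell after orchiectomy in normoxia in place of 1274 and 1045, and 830 and 141 in place of 211 and 254 under intermittent hypoxia, with the median of all genes at 0.14 in place of 0.01 and at 0.13 in place of -0.0043. The low counts of Ly6g, Mpo, Retnlg and Gpnmb limit what depth can show for them.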

Other observations

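The B cell markers here were chosen after their values were seen. Under intermittent hypoxia, where 0 of the 37 myeloid genes passed edgeR's test, Cd79a (1.84 ± 0.31, adjusted p = 0.00198), Ms4a1 (2.03 ± 0.40, adjusted p = 0.00876) and Cd79b (1.51 ± 0.33, adjusted p = 0.0186) rose after orchiectomy. Cd79a and Cd79b are the signalling chains of the B cell receptor, and Ms4a1 encodes CD20. Ms4a1 was at 0.144 to 0.338 CPM in Sham_IH and at 2.90, 0.670, 0.827, 0.678 and 0.850 CPM in ORX_IH, highest in ORX_IH 1, and the groups did not overlap. ORX_IH 1 is also the library highest in skeletal muscle genes, whose part was not tested. Cd79a was at 0.287 to 0.596 CPM in Sham_IH and at 2.83, 1.24, 1.29, 0.784 and 1.15 CPM in ORX_IH. In normoxia Cd79b rose as well (1.17 ± 0.34, edgeR, adjusted p = 0.0302), while Cd79a (0.82 ± 0.31, adjusted p = 0.0843) and Ms4a1 (1.05 ± 0.41, adjusted p = 0.0900) did not pass. The interaction passed for none of the 3 genes (edgeR, adjusted p 0.752 to 0.925).

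Il1rn, which encodes the interleukin 1 receptor antagonist, was the 1 gene of the 18 tested growth factors, chemokines and receptors to fall under intermittent hypoxia in orchiectomized mice (-1.67 ± 0.31, edgeR, adjusted p = 0.04998, next to the threshold). It was at 4.70, 3.84, 2.85, 6.78 and 11.3 CPM in ORX_Nx and at 2.74, 1.60, 1.41, 1.22 and 2.25 CPM in ORX_IH, with every ORX_IH mouse below every ORX_Nx mouse. Lcn2 was spread widely in both orchiectomized groups, at 8.28 to 164 CPM in ORX_Nx and 3.50 to 82.3 CPM in ORX_IH, against 1.70 to 5.87 CPM over the sham mice.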
